A study of Mus musculus with 31 samples.

Results

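Skin treated for 24 weeks with the compound coded jak1i was compared with skin of the same arm at 0 weeks. The arrays were chosen by their titles and cover 5 of the 31 arrays of the series, 2 at 24 weeks and 3 at 0 weeks. All came from skin of C3H/HeJ mice, a strain used as a model of alopecia areata, and the study concerns topical JAK inhibitors in established disease, as far as its title states. The other arrays are jak1i skin at 6 and 12 weeks, skin under a compound coded jak3i at 0, 6, 12 and 24 weeks, and skin under PBS at 0, 6 and 12 weeks. The compounds are known only by these codes, and no dose, age or sex was given. The replicates are called biological in the series text, and whether the mice at 24 weeks were those sampled at 0 weeks is not stated. Skin under PBS at 24 weeks was not analysed here, so 24 weeks of jak1i and the passage of 24 weeks cannot be told apart.

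JAK1 is a kinase on the inner side of cytokine receptors. It acts in the receptors for interferon-γ, for the type I interferons and for the cytokines that share the common γ chain, such as IL-15. In alopecia areata, cytotoxic T cells gather around the hair follicle, interferon-γ induces chemokines and antigen presentation in the skin, and hair growth stops. Activated STAT proteins enter the nucleus, and many interferon-induced genes carry a GAAA repeat near their start, the core of the interferon-stimulated response element.

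The stretches upstream of 6 interferon-induced genes in which replicate 1 and replicate 2 at 24 weeks lay apart are shown. The genes were chosen with their letters and values known, so a match in each follows from the choice. Each line holds 60 of the 250 bases ahead of the start site, around the match, on the strand of the gene, 5′ to 3′, from RefSeq promoters on GRCm38.p6, and capitals mark matches to GAAA-NN-GAAA on either strand, where N is any base, overlapping matches run together. Cxcl10 (a chemokine gene) lies at chr5:92349068-92349127 on the minus strand, Gbp2 (a guanylate-binding protein) at chr3:142620579-142620638 on the plus strand, and Irgm1 (an immunity-related GTPase) at chr11:48871421-48871480 on the minus strand. Igtp (another GTPase of that family) lies at chr11:58199496-58199555 on the plus strand, Ifit1 (an antiviral RNA-binding protein) at chr19:34640779-34640838 on the plus strand, and Oas1a (an oligoadenylate synthetase) at chr5:120907526-120907585 on the minus strand.
Cxcl10: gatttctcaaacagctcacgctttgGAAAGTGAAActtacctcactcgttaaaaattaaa
Gbp2: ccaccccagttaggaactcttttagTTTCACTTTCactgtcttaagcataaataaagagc
Irgm1: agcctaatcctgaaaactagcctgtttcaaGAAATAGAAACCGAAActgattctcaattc
Igtp: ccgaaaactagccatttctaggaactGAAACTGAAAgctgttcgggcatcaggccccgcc
Ifit1: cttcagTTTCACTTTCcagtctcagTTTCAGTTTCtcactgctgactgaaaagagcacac
Oas1a: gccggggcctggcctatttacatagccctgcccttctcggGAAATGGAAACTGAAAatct
Within 250 bases upstream, the motif occurred in 8 of 14 genes of the interferon-γ list and in 6 of 13 of the type I interferon list that had a promoter entry. It occurred in 2 of 16 cytotoxic genes, in 0 of 10 T cell genes and in 936 of 27025 genes of the whole table, or 3.46%. A match describes the letters in this window.

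The 31 arrays had medians of 6.05 to 6.24 on the log2 scale, and no 2 arrays were identical. Flg, which encodes the epidermal protein filaggrin, lay between 11.87 and 12.96 on all 5 arrays, near the top of a scale that ends at 14.69. Among the 5 arrays Xist lay between 12.55 and 13.03, and the Y-linked genes Kdm5d, Uty and Eif2s3y reached at most 4.17. A gene was represented by 1 probe set, which gave 18193 genes. Values below are the log2 values of the authors, differences are 24 weeks minus 0 weeks on the log2 scale, errors are standard errors, and adjusted p-values are those of limma over all genes.

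The 2 arrays at 24 weeks stood at unequal distances from the start. Across genes, replicate 1 correlated with the 3 starting arrays at 0.977 to 0.983 and replicate 2 at 0.948 to 0.965, against 0.980 to 0.989 among the starting arrays themselves. Replicate 1 differed at least 2-fold from the mean of the start in 658 genes, 532 higher and 126 lower, and replicate 2 in 1550 genes, 898 higher and 652 lower. Replicate 1 was below all 3 starting arrays in 26.8% of genes and above them in 27.9%, and replicate 2 was below them in 29.6% and above them in 35.2%. When replicate 2 alone stood for 24 weeks, 468 genes passed an adjusted p of 0.05 (2.57%), of which 378 were higher (2.08%) and 90 lower (0.495%). When replicate 1 alone did, 1 gene passed (0.0055%), with 1220 genes under an unadjusted p of 0.05. That gene, picked after its value had been seen, was Chil4, a chitinase-like protein gene of macrophages and epithelia. Chil4 lay at 6.95 in replicate 1 and 4.54 in replicate 2 at 24 weeks, against 4.72, 4.56 and 4.72 at 0 weeks.

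With both arrays, 216 of 18193 genes passed at 24 weeks against 0 weeks (1.19%), 188 higher (1.03%) and 28 lower (0.154%). Of these, 82 were at least 2-fold higher and 12 at least 2-fold lower, and 3709 genes had an unadjusted p under 0.05. In each of the 216, both arrays at 24 weeks lay outside the range at 0 weeks, which was so for 37.8% of all genes. The calls came from these same arrays, so this separation is not separate support. The 2 arrays at 24 weeks differed at least 2-fold from each other in 16 of the 216, against 589 of all genes. Without replicate 1, 2 or 3 at 0 weeks the count was 4, 6 or 81, and without replicate 1 or 2 at 24 weeks it was 468 or 1. With the mean of the hair shaft keratin genes as a covariate it was 0, with 2729 genes under an unadjusted p of 0.05.

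Genes of killer lymphocytes led the falls. Gzma, which encodes a granzyme released from cytotoxic granules, lay at 8.13 and 5.55 at 24 weeks, against 11.98, 11.35 and 9.79 at 0 weeks, a difference of −4.20 (SE 0.79, adjusted p = 0.0316). Gzmb, the granzyme gene that starts apoptosis in target cells, lay at 8.94 and 5.32 at 24 weeks, against 10.71, 10.25 and 10.59 at 0 weeks (−3.38, SE 0.82, adjusted p = 0.0470). In both genes replicate 2 was the lower array by far, and replicate 1 still lay below all starting arrays. Fasl, whose product triggers death through the Fas receptor, lay at 4.33 and 3.82 at 24 weeks, against 6.54, 6.95 and 5.75 at 0 weeks (−2.34, SE 0.42, adjusted p = 0.0316). Ccl5, a chemokine gene of T cells that draws further T cells, lay at 9.26 and 8.26 at 24 weeks, against 10.89, 11.60 and 10.52 at 0 weeks (−2.24, SE 0.52, adjusted p = 0.0441). Both arrays at 24 weeks were below all starting arrays in these genes, and replicate 2 lay below replicate 1 by about 1 log2 unit in Ccl5. Prf1, the gene of the pore-forming protein perforin, lay at 6.40 and 5.98 at 24 weeks, against 7.24, 7.34 and 7.07 at 0 weeks (−1.03, SE 0.23, adjusted p = 0.0436).

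The coreceptor of cytotoxic T cells fell with them. Cd8a lay at 6.67 and 6.21 at 24 weeks, against 8.29, 8.78 and 7.80 at 0 weeks (−1.85, SE 0.33, adjusted p = 0.0316). Cd8b1, which encodes the other chain of CD8, lay at 5.65 and 5.02 at 24 weeks, against 7.52, 7.72 and 7.24 at 0 weeks (−2.16, SE 0.42, adjusted p = 0.0316). The groups did not overlap in either gene. Cd3d, a chain of the T cell receptor complex, lay at 7.92 and 7.60 at 24 weeks, against 8.61, 8.77 and 8.29 at 0 weeks, and did not pass (−0.79, SE 0.23, adjusted p = 0.0676). In this bulk tissue, fewer cells of a type and less RNA per cell cannot be told apart.

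Of the 20 measured genes of the cytotoxic list, 5 fell and 0 rose, with a median of −0.95 against 0.00 over all genes, and both arrays at 24 weeks were below all starting arrays in 14 of them, against 16.5% of all genes. The 5 were the granzyme, Fas ligand, perforin and Ccl5 genes above. With only the arrays of this comparison in the fit 0 cytotoxic genes passed, and with the replicate number as a block 0. It was 2 with the mean of probe sets or a random block, 4 with all 9 arrays at 0 weeks as the start, and 7 without dim genes. Klrk1, the gene of the activating receptor NKG2D, lay at 6.52 and 5.96 at 24 weeks, against 7.11, 7.46 and 6.88 at 0 weeks (−0.91, SE 0.36, adjusted p = 0.150). Ifng, the interferon-γ gene, lay at 6.64 and 4.89 at 24 weeks, against 7.07, 6.59 and 8.01 at 0 weeks (−1.46, SE 0.67, adjusted p = 0.221), and here replicate 1 lay among the starting arrays. Of 17 T cell genes 2 fell, both of CD8, with a median of −0.62. Of 13 genes of regulatory T cells and checkpoints 0 passed, with a median of −0.18, and Pdcd1, which encodes the inhibitory receptor PD-1, lay at −0.97 (SE 0.29, adjusted p = 0.0703). The cytotoxic count was 0, 0 or 2 without replicate 1, 2 or 3 at 0 weeks, and 6 or 0 without replicate 1 or 2 at 24 weeks. The T cell count was 0, 0 or 3 and 2 or 0 in the same order.

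**Figure D1:**
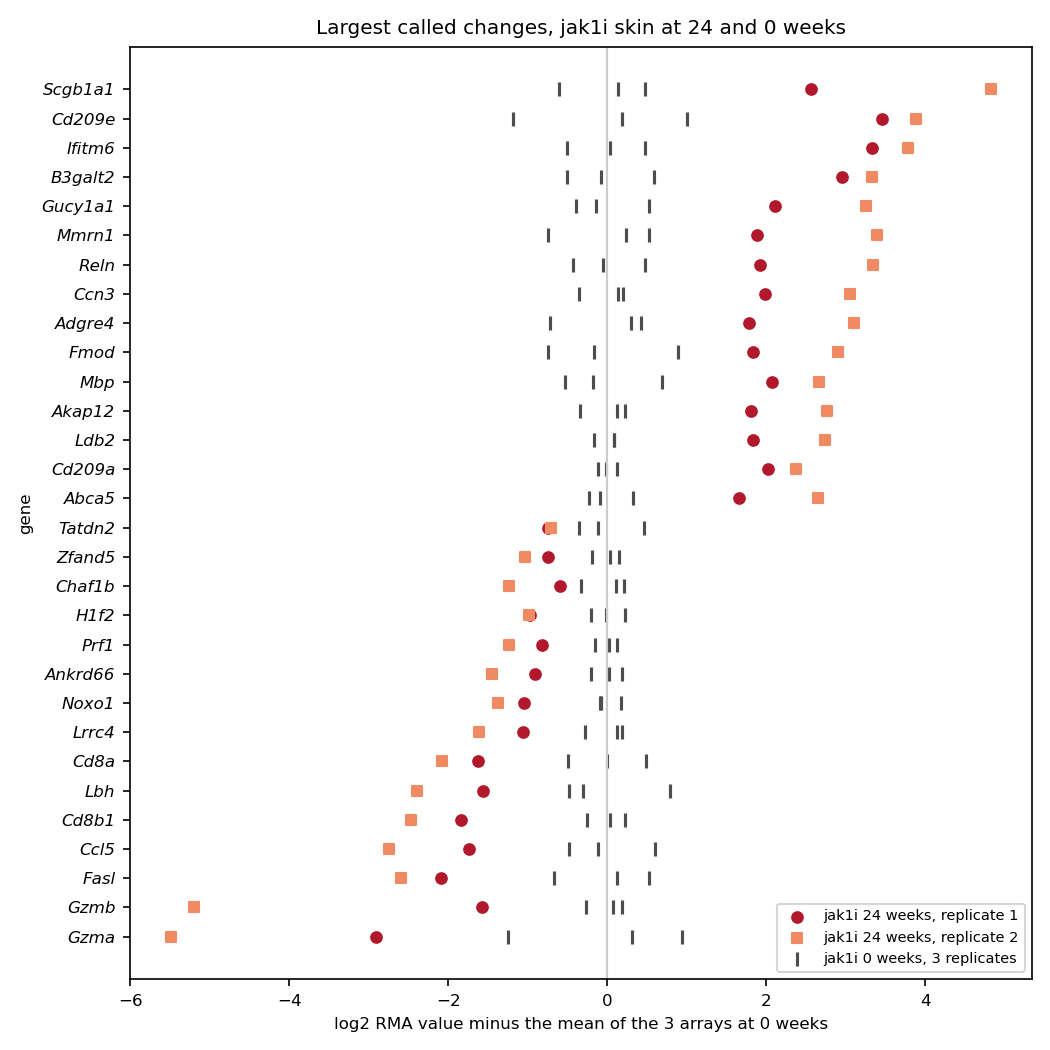
Values on each array of the 15 largest rises and 15 largest falls among genes that passed, as the log2 value minus the mean of the 3 arrays at 0 weeks (x axis), by gene (y axis). Circles and squares are the 2 jak1i arrays at 24 weeks and dashes the 3 jak1i arrays at 0 weeks. Genes were chosen so that both arrays at 24 weeks lie outside the dashes, and in Gzma and Gzmb these 2 arrays lie far apart.

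Among the other large falls, H1f2, a linker histone gene, lay at 10.35 and 10.33 at 24 weeks, against 11.31, 11.54 and 11.11 at 0 weeks (−0.98, SE 0.24, adjusted p = 0.0493). Chaf1b, a subunit of the factor that loads histones on new DNA, lay at 7.02 and 6.38 at 24 weeks, against 7.29, 7.83 and 7.73 at 0 weeks (−0.92, SE 0.18, adjusted p = 0.0316). Lbh, a transcription cofactor gene, fell by 1.98 (SE 0.49, adjusted p = 0.0485). The remaining named falls were Lrrc4 (an adhesion protein of synapses), Noxo1 (an organiser of an NADPH oxidase), Ankrd66, Zfand5 and Tatdn2, with differences of −1.34 to −0.72. Of the 30 largest changes, 24 kept their call without replicate 1 at 24 weeks and 0 without replicate 2, and 1, 0 and 7 kept it without replicate 1, 2 and 3 at 0 weeks. All 30 kept their direction in each of these, as genes whose groups do not overlap must when 1 array is left out.

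Most genes that answer type I interferon lay below the start on both arrays, and 0 passed. Mx1, an antiviral GTPase gene, lay at 7.66 and 5.91 at 24 weeks, against 8.90, 8.65 and 9.24 at 0 weeks (−2.14, SE 0.63, adjusted p = 0.0683). Oas1a, whose upstream letters are shown above, lay at 10.70 and 8.99 at 24 weeks, against 11.46, 11.26 and 11.53 at 0 weeks (−1.57, SE 0.50, adjusted p = 0.0857). Ifit1 lay at 9.60 and 7.44 at 24 weeks, against 10.59, 9.82 and 10.63 at 0 weeks (−1.82, SE 0.62, adjusted p = 0.101). In each of these genes replicate 1 lay between replicate 2 and the start. Of 20 measured genes of the list 0 passed and 19 had an unadjusted p under 0.05, with a median of −1.38. Replicate 1 was below all starting arrays in 18 and replicate 2 in 20, against 26.8% and 29.6% of all genes. The medians of the list were −0.70 in replicate 1 and −2.11 in replicate 2. With replicate 2 alone 11 of the 20 passed, and with replicate 1 alone 0 did.

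Genes that answer interferon-γ separated the 2 arrays. Cxcl9 encodes a ligand of CXCR3, a chemokine receptor on T cells. It lay at 12.08 and 8.32 at 24 weeks, against 13.00, 12.80 and 12.84 at 0 weeks (−2.68, SE 1.20, adjusted p = 0.208). Cxcl10, the next ligand, lay at 10.76 and 7.11 at 24 weeks, against 11.02, 10.36 and 11.49 at 0 weeks (−2.02, SE 1.13, adjusted p = 0.324). Cxcl11 lay at 10.53 and 6.30 at 24 weeks, against 11.84, 11.16 and 11.75 at 0 weeks (−3.17, SE 1.09, adjusted p = 0.105). Replicate 2 was far below the start in all 3 chemokine genes, whereas replicate 1 was just below it in Cxcl9 and Cxcl11 and inside it in Cxcl10. In 3 GTPase genes the 2 arrays lay apart as well, though by less than in these chemokine genes. Gbp2 lay at 11.67 and 9.52 at 24 weeks, against 11.59, 11.50 and 12.10 at 0 weeks, and Igtp at 12.70 and 10.21, against 12.30, 12.31 and 12.79. Irgm1 lay at 11.47 and 9.18 at 24 weeks, against 11.29, 11.11 and 11.50 at 0 weeks. These 3 genes, chosen for their promoter letters after their values had been seen, were in replicate 1 within the range of the start and in replicate 2 below it.

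Of 21 measured interferon-γ genes 0 passed, 3 had an unadjusted p under 0.05, and the median was −0.97. Replicate 2 was below all starting arrays in 21 of 21, against 29.6% of all genes. Replicate 1 was below them in 5 and above them in 5, against 26.8% and 27.9% of all genes. The median of replicate 1 was 0.17 and that of replicate 2 was −2.12, and 1 gene, Cxcl11, passed with replicate 2 alone (adjusted p = 0.0347). Of 14 genes of MHC class I processing 0 passed, with a median of −0.55, −0.24 in replicate 1 and −0.80 in replicate 2. Both arrays were below the start in 9 of the 14, against 16.5% of all genes. The MHC class II list had a median of 0.22, with 0 of 9 genes past the threshold. Of 20 chemokine genes 1 fell, Ccl5, with a median of −0.78.

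**Figure D2:**
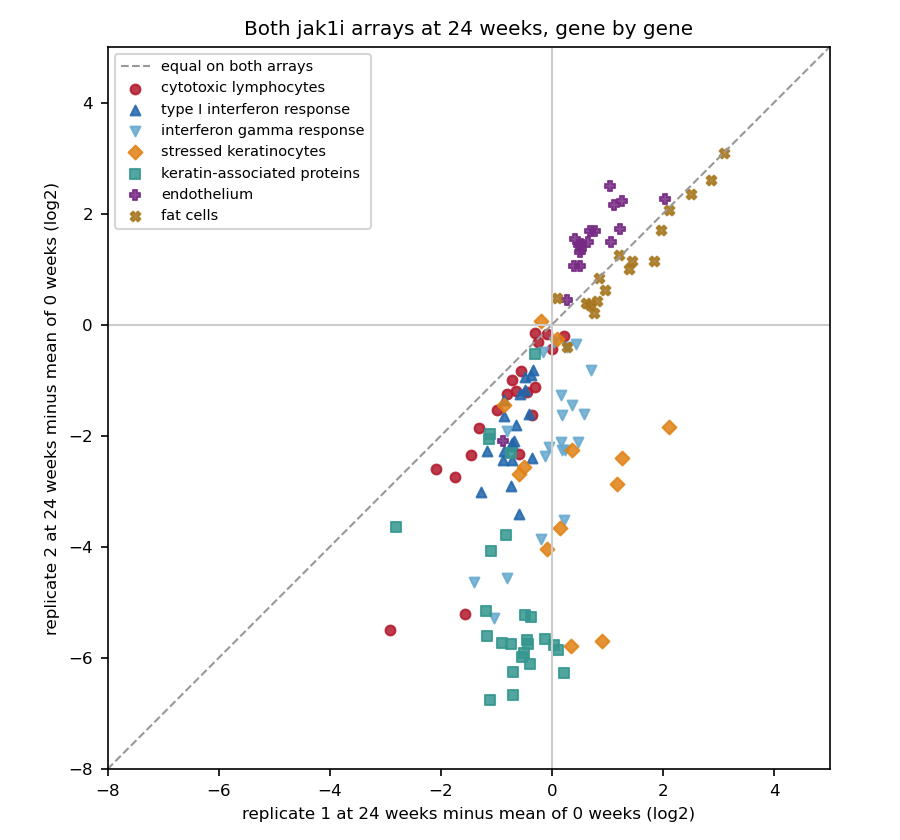
Difference of each listed gene from the mean of the 3 jak1i arrays at 0 weeks, on the log2 scale, in replicate 1 (x axis) and replicate 2 (y axis) of jak1i at 24 weeks; each point is a gene and the dashed line marks equal differences. Interferon-γ genes, stressed keratinocyte genes and keratin-associated proteins lie mostly well below the line, while fat cell genes lie near it.

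Hair and epidermal genes showed the same split. The hair shaft consists of keratins and of keratin-associated proteins that link them, made while the follicle grows. Krt34, a hair keratin gene, lay at 10.47 and 5.23 at 24 weeks, against 11.78, 10.37 and 12.69 at 0 weeks (−3.76, SE 1.91, adjusted p = 0.274). Krtap15, a keratin-associated protein gene, lay at 11.59 and 6.36 at 24 weeks, against 12.38, 10.45 and 13.28 at 0 weeks (−3.06, SE 1.94, adjusted p = 0.393). Replicate 1 was within the range of the start in both genes and replicate 2 was far below it. Of 12 hair shaft keratin genes 0 passed, with medians of −0.78 in replicate 1 and −4.14 in replicate 2. Of 25 keratin-associated protein genes 0 passed, with medians of −0.70 and −5.68 in the same order, and of 11 inner root sheath genes 0 passed, with −0.29 and −4.70. Replicate 2 was below all starting arrays in 12, 25 and 10 members of these lists, against 29.6% of all genes. Hybridisation between near-identical family members was not tested, so single keratin-associated protein genes are uncertain.

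The list mean of the hair shaft keratins, relative to the mean of all 31 arrays, was 0.53 and −2.67 at 24 weeks, against 1.28, 0.25 and 2.48 at 0 weeks, so that the starting arrays differed among themselves as well. The part of this difference in the results of replicate 2 was not tested beyond the covariate above, with which 0 cytotoxic genes passed at a median of −0.68.

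Genes of stressed keratinocytes, which mark wounded or inflamed epidermis, parted too. Krt6b, a keratin gene of this state, lay at 13.57 and 6.97 at 24 weeks, against 13.27, 11.15 and 13.58 at 0 weeks (−2.40, SE 1.45, adjusted p = 0.367). Krt16, another, lay at 12.35 and 8.41 at 24 weeks, against 12.58, 12.14 and 12.60 at 0 weeks (−2.06, SE 0.98, adjusted p = 0.234). Replicate 1 was at the level of the start in both, and replicate 2 was below all other arrays of the comparison. Of 13 such genes 0 passed, with medians of 0.15 in replicate 1 and −2.56 in replicate 2, of which 2 passed with replicate 2 alone, Krt6b (adjusted p = 0.0435) and Krt16 (adjusted p = 0.0457). Mmp13, a collagenase gene, lay at 8.31 and 3.89 at 24 weeks, against 9.99, 8.01 and 9.58 at 0 weeks. Its difference of −3.09 was the lowest of the metalloproteinase list. Of the 13 genes of that list 0 passed, 6 had a positive and 7 a negative difference, and the median was −0.07. Of 24 cell cycle genes 0 passed. Replicate 2 was below all starting arrays in 23 of them and replicate 1 in 7, against 29.6% and 26.8% of all genes. Krt2, a keratin gene of differentiated epidermis, lay at 5.0 and 10.06 at 24 weeks, against 3.70, 4.08 and 4.26 at 0 weeks (3.51, SE 0.91, adjusted p = 0.0523). It stood apart from its list, since of 18 epidermal differentiation genes 0 passed, 12 had a negative difference and the median was −0.10. Casp14, a protease gene of the outer epidermis, lay at 8.63 and 8.19 at 24 weeks, against 10.06, 8.78 and 9.92 at 0 weeks (−1.18, SE 0.46, adjusted p = 0.153).

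The rises were led by Scgb1a1, Cd209e and Ifitm6. Scgb1a1, which encodes a secretoglobin, lay at 7.69 and 9.95 at 24 weeks, against 5.25, 5.59 and 4.51 at 0 weeks (3.70, SE 0.73, adjusted p = 0.0316). Cd209e, a lectin gene of the DC-SIGN family, lay at 9.50 and 9.93 at 24 weeks, against 4.85, 6.23 and 7.04 at 0 weeks (3.67, SE 0.72, adjusted p = 0.0316). Ifitm6, a myeloid member of the interferon-induced transmembrane family, lay at 9.34 and 9.79 at 24 weeks, against 5.50, 6.05 and 6.49 at 0 weeks (3.55, SE 0.85, adjusted p = 0.0449). Both arrays at 24 weeks were high in all 3, and in Cd209e and Ifitm6 they lay close together. Cd209a, a dendritic cell lectin gene, lay at 7.84 and 8.19 at 24 weeks, against 5.94, 5.81 and 5.70 at 0 weeks (2.20, SE 0.51, adjusted p = 0.0441). Adgre4, an adhesion receptor gene of myeloid cells, rose by 2.45 (SE 0.58, adjusted p = 0.0441). Fmod, which encodes the collagen-binding fibromodulin, rose by 2.37 (SE 0.57, adjusted p = 0.0457).

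Vessel and nerve genes stood beside them. Mmrn1, a multimerin gene of endothelium and platelets, lay at 7.91 and 9.43 at 24 weeks, against 5.28, 6.27 and 6.55 at 0 weeks (2.64, SE 0.63, adjusted p = 0.0449). Reln, the gene of the secreted protein reelin, lay at 8.47 and 9.89 at 24 weeks, against 6.12, 7.03 and 6.50 at 0 weeks (2.63, SE 0.55, adjusted p = 0.0358). Gucy1a1, a subunit of the nitric oxide receptor of smooth muscle, lay at 6.86 and 8.01 at 24 weeks, against 4.36, 5.28 and 4.61 at 0 weeks (2.69, SE 0.64, adjusted p = 0.0441). Replicate 2 was the higher array in all 3. Mbp, a myelin gene, lay at 10.51 and 11.10 at 24 weeks, against 8.26, 9.13 and 7.91 at 0 weeks (2.37, SE 0.57, adjusted p = 0.0467). Pmp22, also of myelin, rose by 1.58 (SE 0.36, adjusted p = 0.0441). The other named rises were B3galt2 (a galactosyltransferase), Ccn3 (a matricellular protein), Akap12 (a kinase scaffold), Ldb2 (a LIM domain binder) and Abca5 (a lipid transporter), with differences of 2.15 to 3.14.

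Of 18 endothelial genes 2 rose and 0 fell, with a median of 1.03, and both arrays were above all starting arrays in 17, against 21.3% of all genes. The 2 were Cldn5, a tight junction gene of endothelium, at 8.46 and 9.91 at 24 weeks, against 7.15, 7.66 and 7.40 at 0 weeks (1.78, SE 0.44, adjusted p = 0.0493), and Flt4. Flt4, the VEGF receptor gene of lymphatic vessels, was named after its value had been seen, and lay at 6.54 and 7.46 at 24 weeks, against 5.73, 5.63 and 5.96 at 0 weeks (1.23, SE 0.24, adjusted p = 0.0316). Lyve1, a lymphatic marker, lay at 8.30 and 8.53 at 24 weeks, against 5.77, 6.23 and 6.76 at 0 weeks and did not pass (adjusted p = 0.106). Flt1, named after its value had been seen, had the list's only negative difference (−1.48). Relative to the mean start it lay at −0.88 in replicate 1 and −2.09 in replicate 2, both below all starting arrays. The list's median was 0.59 in replicate 1 and 1.49 in replicate 2. The count of 2 became 0, 0 or 1 without replicate 1, 2 or 3 at 0 weeks, and 3 or 0 without replicate 1 or 2 at 24 weeks. In the dermal papilla list, Sox18 alone of 13 genes rose, a transcription factor gene of vessels and papilla, by 1.78 (SE 0.39, adjusted p = 0.0381). In the dendritic cell list 2 of 10 rose, Cd209a and Zbtb46, and 4 of 10 had a negative difference, of which the lowest was −0.66. In the Schwann cell list 2 of 9 rose, Mbp and Pmp22, and 2 of 9 had a negative difference. Over all genes 1.03% rose.

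Fat cell genes were higher on both arrays by similar amounts, without a call. Adipoq, which encodes the hormone adiponectin, lay at 12.20 and 12.21 at 24 weeks, against 8.65, 8.92 and 9.76 at 0 weeks (3.10, SE 0.88, adjusted p = 0.0638). Retn, the resistin gene, lay at 11.25 and 11.10 at 24 weeks, against 7.90, 9.10 and 9.24 at 0 weeks (2.43, SE 0.76, adjusted p = 0.0817). Of 17 fat cell genes 0 passed, with medians of 1.21 in replicate 1 and 1.01 in replicate 2. In 14 of them both arrays were above all starting arrays, against 21.3% of all genes. Mast cell genes were similar, with 0 of 8 past the threshold and medians of 1.41 and 1.63. Both arrays were above the start in 6 of them, against the same 21.3%. Cpa3, a mast cell protease gene, lay at 10.33 and 10.94 at 24 weeks, against 7.10, 8.37 and 7.56 at 0 weeks (2.96, SE 0.91, adjusted p = 0.0773). Of 16 fibroblast and matrix genes 0 passed and 13 had both arrays above the start, again against 21.3% of all genes. Of 21 skeletal muscle genes 0 passed. Replicate 1 was above the start in 19 and replicate 2 in 1, against 27.9% and 35.2% of all genes.

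**Figure D3:**
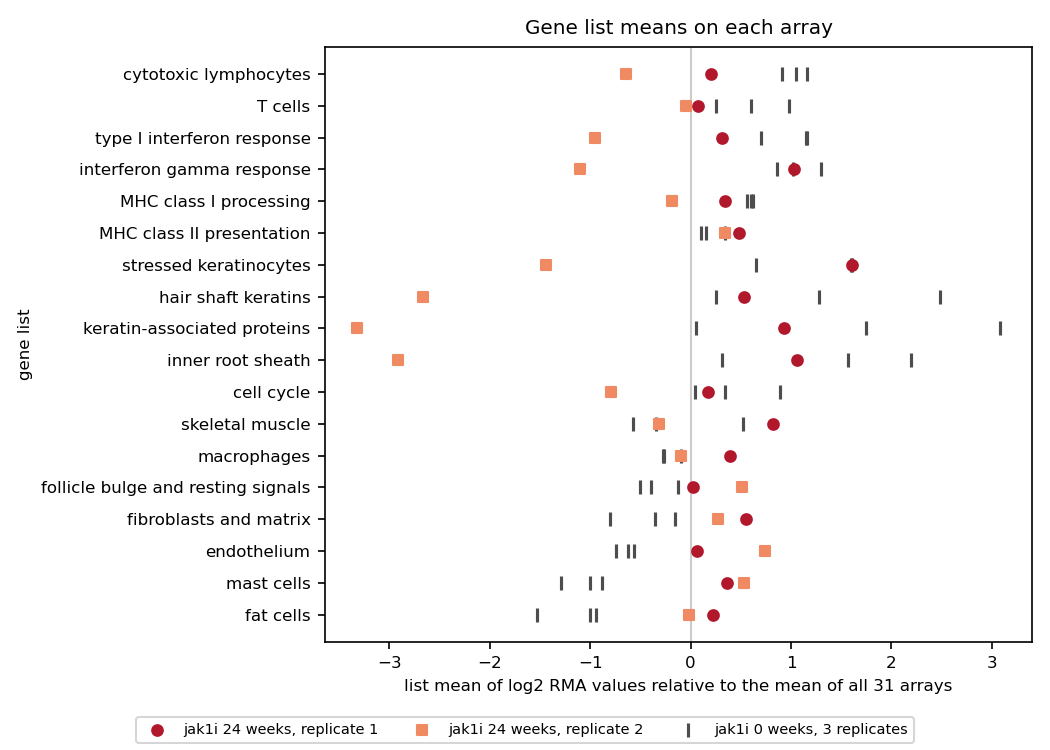
Mean of the listed genes on each array, relative to the mean of all 31 arrays, on the log2 scale (x axis), for 18 gene lists (y axis). Circles and squares are the 2 jak1i arrays at 24 weeks and dashes the 3 jak1i arrays at 0 weeks; in the interferon-γ, keratinocyte and hair lists replicate 1 lies among the dashes and replicate 2 to their left, while for fat and mast cells both lie to the right.

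The kinases themselves were not called. Jak1 lay at 10.52 and 10.81 at 24 weeks, against 10.58, 10.68 and 10.33 at 0 weeks (0.13, SE 0.17, adjusted p = 0.717). Jak3 lay at 5.92 and 5.83 at 24 weeks, against 5.78, 6.09 and 5.83 at 0 weeks (−0.03, SE 0.16, adjusted p = 0.952). Neither sign held in every other setting. Of 10 JAK and STAT genes 0 passed, and Stat2, which carries the type I interferon signal, lay at 8.29 and 6.96 at 24 weeks, against 8.78, 8.36 and 8.87 at 0 weeks. Il15, a cytokine gene of the common γ chain family, lay at 7.73 and 8.12 at 24 weeks, against 7.08, 7.46 and 7.89 at 0 weeks (0.45, SE 0.27, adjusted p = 0.372). Of 20 cytokine and receptor genes that signal through JAKs 0 passed, nor did any of 12 STAT feedback genes, with medians of −0.05 and −0.01.

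Within the arm, the comparisons at 6, 12 and 24 weeks share the arrays at 0 weeks, so their values are given side by side. Of the 20 cytotoxic genes, 15 fell at 6 weeks, 14 at 12 weeks and 5 at 24 weeks, where 6.43%, 6.5% and 0.154% of all genes fell. The medians of the list were −1.83, −1.49 and −0.95. These counts are of genes that passed. Of the 20 type I interferon genes 18, 17 and 0 fell, with medians of −2.14, −1.97 and −1.38. Of the 21 interferon-γ genes 18, 16 and 0 fell, with medians of −2.36, −2.32 and −0.97. At 24 weeks the difference was negative in 20 of the 20 and in 20 of the 21. Fat cell genes rose in 9, 12 and 0 of 17, where 5.94%, 9.76% and 1.03% of all genes rose. The medians of that list were 1.69, 1.77 and 1.20. The groups at 6 and 12 weeks had 3 arrays and the last group 2. Gzmb lay at 10.71, 10.25 and 10.59 at 0 weeks, at 4.99, 4.75 and 4.91 at 6 weeks, at 4.76, 6.18 and 4.91 at 12 weeks, and at 8.94 and 5.32 at 24 weeks. Cd8a lay at 8.29, 8.78 and 7.80 at 0 weeks, at 6.00, 6.42 and 6.08 at 6 weeks, at 5.69, 6.41 and 6.13 at 12 weeks, and at 6.67 and 6.21 at 24 weeks. Replicate 1 at 24 weeks was thus above all arrays at 6 and 12 weeks in both genes, and replicate 2 was inside their range.

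A direct comparison asked whether the last time point differed from the one before. Between 24 and 12 weeks 0 of 18193 genes passed in limma (0%), with 610 under an unadjusted p of 0.05 and a smallest adjusted p of 0.333. That gene was Scg5, a neuroendocrine chaperone gene, at 5.13 and 4.72 at 24 weeks, against 4.17, 4.14 and 4.16 at 12 weeks (0.77, SE 0.14). Gzmb lay higher by 1.85 (SE 0.82), Ccl5 by 1.71 (SE 0.52), Mx1 by 1.16 (SE 0.63) and Krt6b by 2.60 (SE 1.45) at 24 weeks than at 12 weeks. The differences were smaller in Gzma (0.72, SE 0.79), Cd8a (0.36, SE 0.33), Fasl (0.23, SE 0.42) and Prf1 (−0.27, SE 0.23). None of these passed. In Gzmb, replicate 1 at 8.94 lay above the values of 4.76, 6.18 and 4.91 at 12 weeks, and replicate 2 at 5.32 lay among them. The cytotoxic list had a median of 0.61, the interferon-γ list one of 1.33 and the stressed keratinocyte list one of 1.77, against 0.03 over all genes. Without replicate 1 at 24 weeks 3 genes passed and without replicate 2 1 gene did.

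**Figure D4:**
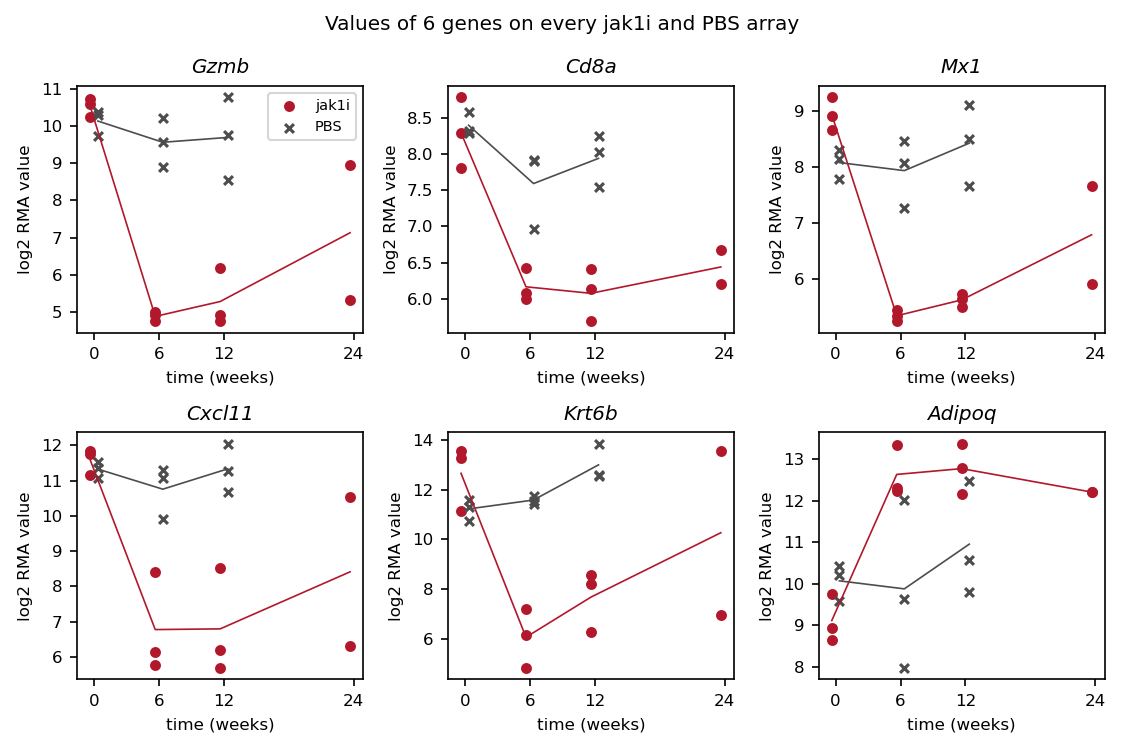
Log2 values (y axis) of 6 genes on every jak1i and PBS array by time in weeks (x axis); lines join group means, and PBS has no point at 24 weeks. The jak1i arrays at 24 weeks lie apart for Gzmb, Mx1, Cxcl11 and Krt6b and together for Adipoq at 12.20 and 12.21.

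The change under jak1i was set against that under jak3i over the same 24 weeks, with 2 and 3 arrays in each arm. The difference of the changes passed in 0 of 18193 genes in limma (0%), with 369 under an unadjusted p of 0.05 and a smallest adjusted p of 0.999. The jak3i arm by itself had 20 called genes (0.11%), of which 3 were called the same way in jak1i, a share of 3 in 216 and 3 in 20. The sign was the same in both arms for 215 of the 216 genes, against 13386 of all 18193 genes, and the arms share no array here. The values of 2 genes of killer T cells are given by array. Fasl was among the 3 genes named for the smallest p in this same comparison, so its gap is not separate support. Other killer genes had gaps of −2.20 (SE 1.12) in Gzma, −1.58 (SE 0.74) in Ccl5, −1.04 (SE 1.16) in Gzmb and −0.65 (SE 0.33) in Prf1. The cytotoxic list had a median gap of −0.77, against −0.03 over all genes. Fasl differed by −2.34 (SE 0.42) from 0 to 24 weeks in jak1i and by −0.06 in jak3i, a gap of −2.28 (SE 0.59). It lay at 4.33 and 3.82 in jak1i and at 5.38 and 3.93 in jak3i at 24 weeks, and the arms started at 6.54, 6.95 and 5.75 and at 4.32, 5.50 and 4.33, so that jak3i started at a level near that of jak1i at 24 weeks. Cd8a lay at 6.67 and 6.21 in jak1i at 24 weeks and at 7.63 and 6.68 in jak3i at 24 weeks, and the arms started at 8.29, 8.78 and 7.80 and at 7.30, 7.71 and 6.82. Its gap was −1.72 (SE 0.46), and the jak3i arm started lower here too. Without replicate 1 or 2 of jak1i at 24 weeks 1 gene passed in each case, and these intervals are too wide to show that the arms changed alike.

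Set against PBS, the times differ, since the latest PBS arrays are those at 12 weeks. The change under jak1i from 0 to 24 weeks minus the change under PBS from 0 to 12 weeks passed in 1 gene in limma (0.0055%), with 3152 under an unadjusted p of 0.05. In PBS alone 414 genes changed (2.28%), 161 of them lower (0.885%), and 5 of the 414 were called the same way in jak1i at 24 weeks. The sign was the same under PBS for 149 of the 216 genes called in jak1i, against 9695 of all 18193 genes. All 15 named falls had a smaller difference under PBS, and 1 of them, Zfand5, fell there as well (−0.68, adjusted p = 0.0461), against −0.89 in jak1i. These genes were chosen as the largest falls in jak1i, which by itself favours smaller differences in another arm. H1f2 had a difference of −0.66 under PBS (adjusted p = 0.115), against −0.98 in jak1i. Of the killer and T cell genes, Gzma had a difference of −0.77, Gzmb −0.44, Fasl −0.76, Ccl5 −0.38, Cd8a −0.46 and Prf1 −0.16, none of which passed. The gaps to PBS were −3.43 (SE 1.07) for Gzma, −2.95 (SE 1.10) for Gzmb and −1.39 (SE 0.44) for Cd8a, with adjusted p-values of 0.127, 0.188 and 0.130. The type I interferon list had a median gap of −1.69 and the cytotoxic list one of −1.16, against −0.01 over all genes, with 0 genes of either past the threshold. The count of 1 became 242 without replicate 2 of PBS at 12 weeks and 20 without replicate 2 of jak1i at 0 weeks. It became 15 without replicate 1 of jak1i at 24 weeks and 4 without replicate 1 of PBS at 12 weeks, and 0 without replicate 1 or 3 of jak1i at 0 weeks, replicate 3 of PBS at 12 weeks or any PBS array at 0 weeks.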

How the data were processed

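Skin RNA was measured on 31 Affymetrix arrays. The deposited log2 values are the authors' RMA output, as the submitters' processing notes name it, a method that subtracts background, matches distributions between arrays and combines probes. No version was stated. The unit was checked on the values (2.59 to 14.69). Total RNA was extracted with a miRNeasy kit and labelled with a 3′ IVT kit, per the labels' protocols. Scan dates were not used, so scanning batches were not tested, and the number of arrays limits the precision.

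Of 45101 probe sets, 34958 named 1 gene, 932 several and 9211 none. After leaving out controls, the probe set with the highest mean stood for each of 18193 genes. Among 34 named called genes, 19 had several probe sets, and 3 of these had one of opposite sign (Mbp, Chaf1b and Zbtb46). A linear model of 11 group means over 31 arrays was fitted with limma 3.58.1 in R 4.3.3 (20 residual and 2.50 prior degrees of freedom), tested on simulated data, and Benjamini-Hochberg adjusted p under 0.05 was called. Comparisons were 24 against 0 weeks, 24 against 12 weeks, and the change in jak1i minus that in jak3i or PBS. All p-values measure the spread between these arrays.

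Named genes were the 15 largest rises and falls among called genes without overlap of groups, the 4 members of each list with the largest difference, a fixed set, and 3 of each other comparison, without unnamed gene models. The members and lists were chosen with earlier results of these data known. Not every gene that this rule gives is printed, and genes outside it are said to be chosen by their values or promoter letters. Other settings were the mean of probe sets, array centring, a filter on dim genes, a trended robust variance, the compared arrays alone, the replicate number as a block, hair or muscle list means as covariates, all 9 arrays at 0 weeks as the start, and leaving out each array.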

Additional observations from a re-analysis of the deposited data

Results flagged for a closer look

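Myh2, a myosin gene of fast muscle fibres, differed in its change between the arms by 6.50 (SE 1.04, adjusted p = 0.0441 in limma), which is the change under jak1i from 0 to 24 weeks minus that under PBS from 0 to 12 weeks. It lay at 9.93 and 11.43 in jak1i at 24 weeks, against 8.75, 9.52 and 8.58 in jak1i at 0 weeks, a difference of 1.73 that did not pass (adjusted p = 0.208). In PBS it lay at 5.07, 7.99 and 6.26 at 12 weeks, against 11.95, 10.97 and 10.71 at 0 weeks, a difference of −4.77. The gap thus came with low PBS values at 12 weeks, where 20 of 21 skeletal muscle genes fell at a median of −4.36, against 0.885% of all genes that fell there. With the mean of the muscle list as a covariate 0 genes passed. How deep each piece of skin was taken was not tested.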

How the results depend on the processing

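The count of 216 genes at 24 against 0 weeks was 207 with arrays centred and 177 with a trended, robust variance. It was 25 with the mean of probe sets, 526 without dim genes, 50 with the compared arrays only, 118 with the muscle covariate, 438 with all 9 arrays at 0 weeks as the start, and 0 with the hair covariate. With the replicate number as a block it was 0, and as a random block 87. Whether equal numbers mark the same mouse is not stated, and the deviations of same-numbered arrays, which correlated at 0.04 and 0.41, do not decide it, because those of the 2 arrays at 24 weeks mirror each other. Leaving out an array gave 1 to 468 genes. The 24 against 12 week count of 0 was also 0 in each other setting with all arrays, and leaving out an array gave 0 to 3. The gap to jak3i likewise stayed at 0, and leaving out an array gave 0 to 1. The gap to PBS, 1 gene, was 14 with arrays centred, 23 without dim genes, 33 with the compared arrays only, and 0 with the replicate block, the random block or the muscle covariate, and leaving out an array gave 0 to 242. The cause of these differences was not tested.

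The 30 largest changes kept their direction in every setting, of which 29 were tested without dim genes. Where an array was left out or only the estimate of the spread changed, this followed from choosing genes without overlap of groups. Fewer of the 30 kept their call. It was 28 with arrays centred, 26 with a trended, robust variance, 24 with all 9 starting arrays and 18 with the muscle covariate. It was 10 with the random block, 6 with the mean of probe sets, 4 with the compared arrays only, and 0 with the replicate block or the hair covariate. Without dim genes 29 of 29 kept it. Jak1 was −0.12 with the mean of probe sets and −0.04 with the hair covariate, and −0.02 to 0.27 when an array was left out. Jak3 was 0.13 with all 9 starting arrays, and −0.09 to 0.07 when an array was left out. Krtap15 was 0.08 with the hair covariate. When an array was left out, Krt6b ranged over −5.69 to 0.90, Chil4 over −0.13 to 2.29, Igtp over −2.25 to 0.23 and Irgm1 over −2.12 to 0.17. With 2 arrays at 24 weeks, a lone array was assumed to vary like the other groups.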

Other observations

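Of 10 sebaceous gland genes 0 passed, with a median of 0.55. Both arrays were above the start in 6 and below it in 1, against 21.3% and 16.5% of all genes. Scd3, a lipid desaturase gene, lay at 10.38 and 10.82 at 24 weeks, against 6.78, 7.87 and 7.14 at 0 weeks (3.34, SE 1.08, adjusted p = 0.0890), and Fa2h, which makes hydroxylated fatty acids, at 10.51 and 10.70, against 7.98, 9.21 and 8.35 (2.10, SE 0.69, adjusted p = 0.0911). Krt79, a keratin gene of the gland's duct and the one below the start, named after its value had been seen, lay at 13.28 and 12.95 at 24 weeks, against 13.92, 14.04 and 13.53 at 0 weeks (−0.72, SE 0.25, adjusted p = 0.116). Of 14 genes of the follicle bulge and resting signals 0 passed, 10 had a positive and 4 a negative difference, and the median was 0.50. Sox9, a stem cell factor gene with the lowest difference, named after its value had been seen, lay at 9.66 and 9.82 at 24 weeks, against 10.52, 10.69 and 9.73 at 0 weeks (−0.57, SE 0.33, adjusted p = 0.334). Fgf18, a growth factor gene of the resting follicle, lay at 7.05 and 8.70 at 24 weeks, against 5.08, 5.07 and 5.21 at 0 weeks (2.75, SE 0.77, adjusted p = 0.0598). Cd34, which marks bulge stem cells and vessels in mice, lay at 10.86 and 11.29 at 24 weeks, against 9.37, 9.84 and 9.43 at 0 weeks (1.53, SE 0.41, adjusted p = 0.0570). Krt15, a bulge keratin gene, lay at 12.73 and 13.54 at 24 weeks, against 11.21, 12.75 and 11.14 at 0 weeks, so that 1 starting array reached the level of replicate 1.

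Per1, a clock gene, lay at 8.40 and 8.59 at 24 weeks, against 9.75, 10.31 and 9.51 at 0 weeks (−1.36, SE 0.43, adjusted p = 0.0818). Npas2, which acts in the opposite phase, lay at 5.97 and 6.75 at 24 weeks, against 5.23, 5.33 and 4.91 at 0 weeks (1.20, SE 0.40, adjusted p = 0.0991). Per1 and Npas2 had the lowest and highest differences of their list. Of its 15 clock genes 0 passed, 8 had a positive and 7 a negative difference, and the median was 0.01. The hour of sampling was not stated, and its part in these values was not tested.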
